A study of Homo sapiens with 6 samples.

Results

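The 10 genes described here encode secreted matrix proteins and were measured in MCF10A cells, an immortalised, non-tumorigenic human mammary epithelial line: FN1, FBN1, DCN, LUM, BGN, SPARC, POSTN, TNC, THBS1 and VCAN. They were chosen by gene symbol, with earlier results of these data known, and are 10 of the 52401 genes in the deposited tables, each with 1 row. The control line stably expresses the fluorescent protein mCherry from 1 retroviral vector and was selected with puromycin. The flotillin line stably co-expresses Flotillin1-HA and Flotillin2-mCherry from 2 retroviral vectors and was selected with puromycin and hygromycin. Both lines therefore carry mCherry and a puromycin marker and were grown in the same medium with horse serum, insulin, EGF, hydrocortisone and cholera toxin. Each group has 3 libraries of polyA RNA, 6 in all. The labels do not state whether the 3 libraries of a line are separate cultures; p-values reflect their spread, part of which may be technical. Because each group is 1 selected line, effects of the flotillins, of the extra vector and of hygromycin cannot be told apart.

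These proteins build or tune the matrix between cells. Fibronectin is a large glycoprotein that cells draw out into fibrils through integrins, and its gene is a classical marker of epithelial-mesenchymal transition. Fibrillin-1 forms microfibrils that carry elastin and latent TGF-beta, while decorin, lumican and biglycan are small leucine-rich proteoglycans that decorate collagen fibrils. SPARC, periostin, tenascin C and thrombospondin 1 are matricellular proteins, which act on cells and growth factors more than they bear load, and versican is a large proteoglycan that binds hyaluronan. In the breast most of them are made mainly by stromal fibroblasts.

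The matrix genes did not move as a block. In the authors' deposited table of means, FN1, FBN1, DCN and LUM rose in the flotillin line (4 of 9 members with an adjusted p), SPARC fell (1 of 9), and BGN, TNC, THBS1 and VCAN did not pass an adjusted p of 0.05. In cultures of this kind, fewer cells with a transcript and less of it per cell cannot be told apart. Over all 19733 genes with an adjusted p in that table, 11.6% were called higher and 12.0% lower, 23.6% in all. POSTN has no p-value in that table. Across the 9 members the median log2 fold change was 0.40, against -0.04 over all tested genes. Because the members were chosen with earlier results known, these shares and medians are description and not a test. The authors' deposited Tuxedo table, a second analysis of the same comparison, called the same 4 genes higher and SPARC lower, where 6.93% of 17022 tested genes were called higher and 10.0% lower. The 10 members together held 0.126% of all normalized counts in control and 0.913% in flotillin cells, and FN1 alone made up 0.645% in the latter.

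Values are normalized read counts, that is reads divided by the size factor of their library. The authors deposited group means, from which the reads of single libraries were recovered where the mean allowed only 1 set of whole numbers. This held for 8 members in all 6 libraries and for FN1 and DCN in control libraries. Within each group they are numbered library 1 to 3 by falling size factor, which has no link to the replicate numbers of the labels. Control and flotillin libraries of the same number are therefore matched by rank alone, with no known link. Flotillin library 3 was the highest flotillin library for all 8 of these members, and several results are also given without it. Recovered reads summed to between 17269781 and 18491406 per library, leaving out 182 genes with a high mean in either group. Of 6 epithelial markers read for MCF10A cells, 5 fell: the basal genes KRT14, KRT17 and TP63 and the general epithelial genes CDH1 and EPCAM. The basal keratin gene KRT5 did not pass, with authors' means of 48381 in control and 67351 in flotillin cells.

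**Figure D1:**
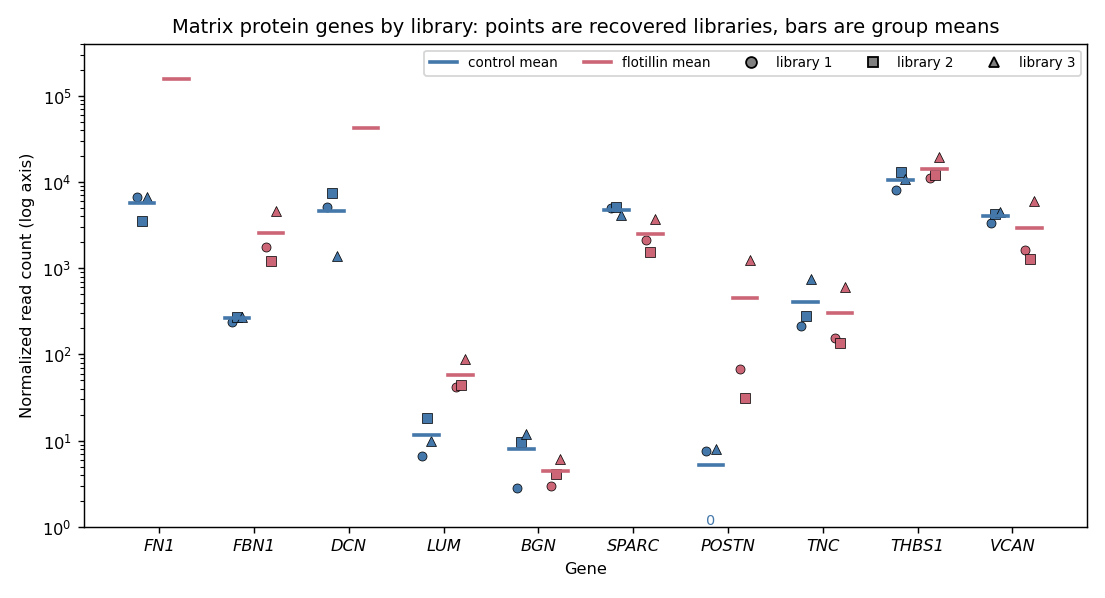
Normalized read counts (log axis) of the 10 matrix genes in control (blue) and flotillin (red) cells. Points are recovered libraries 1 to 3 (a 0 marks a library without reads) and horizontal lines are the authors' group means; FBN1, LUM and POSTN have every flotillin library above every control library, and library 3 is the highest flotillin library in all 8 genes with flotillin points.

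The promoter stretches of FN1, FBN1 and POSTN are shown because these members had the 3 largest ratios of group means. By symbol 8 of 10 members matched an entry. DCN and LUM had no entry. Each stretch is the 250 bases before the annotated start in RefSeq, build GRCh38.p14, on the gene's own strand, which is the minus strand for all 3. They lie at chr2:215436069-215436318 (FN1), chr15:48644971-48645220 (FBN1) and chr13:37598769-37599018 (POSTN). Capitals mark matches on either strand to TATAA (the TATA box core), TGACGTCA (the cAMP response element), TGANTCA (AP-1), GGAATG (TEAD) and CACCTG (an E-box bound by SNAI and ZEB factors).
FN1: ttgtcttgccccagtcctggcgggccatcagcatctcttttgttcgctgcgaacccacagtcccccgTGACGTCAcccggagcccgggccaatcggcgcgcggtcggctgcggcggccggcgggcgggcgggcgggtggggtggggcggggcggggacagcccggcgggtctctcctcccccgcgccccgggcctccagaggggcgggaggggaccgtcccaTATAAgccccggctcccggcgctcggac
FBN1: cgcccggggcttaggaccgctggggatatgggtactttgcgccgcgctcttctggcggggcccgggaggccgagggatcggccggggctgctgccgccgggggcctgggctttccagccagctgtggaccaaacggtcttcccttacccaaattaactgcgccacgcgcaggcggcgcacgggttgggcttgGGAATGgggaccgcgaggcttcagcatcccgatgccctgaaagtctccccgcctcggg
POSTN: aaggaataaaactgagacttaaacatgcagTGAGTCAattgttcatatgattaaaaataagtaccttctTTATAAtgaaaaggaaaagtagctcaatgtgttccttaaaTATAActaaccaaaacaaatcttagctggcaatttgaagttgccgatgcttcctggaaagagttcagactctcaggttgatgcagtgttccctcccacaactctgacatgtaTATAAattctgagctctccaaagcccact

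The FN1 stretch holds TATAA at 28 to 24 bases before the start and TGACGTCA at 183 to 176, the motif of the cAMP response element. TGACGTCA occurs in 1.65% of 35116 promoter stretches of this length and TATAA in 18.9%. FBN1 has no TATAA and 1 GGAATG, at 58 to 53 bases before the start, a motif found in 11.9% of all stretches. POSTN has TATAA at 29 to 25 bases and further upstream, where 2 matches on opposite strands overlap, and TGAGTCA at 220 to 214, an AP-1 match of a kind found in 6.57%. Of the 8 members with a stretch, TATAA was found in 4, GGAATG in 3, and TGACGTCA and TGANTCA in 1 each. CACCTG, present in 17.5% of all stretches, was found in 0 of the 8. Differences from the shares over all stretches were not tested. The FN1 stretch is 76.4% G and C and that of POSTN 36.4%, against a median of 58% over all stretches. None of the motifs searched occurs in all 3 printed stretches.

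FN1 (ENSG00000115414, GRCh37 chromosome 2, 216225163 to 216300895) encodes fibronectin. Control libraries held 6793, 3515 and 6637 normalized counts, a mean of 5648 ± 1849 (SD, n = 3). The authors' flotillin mean was 157920, 28.0-fold higher, and too high for its libraries to be recovered. The control libraries differ from each other by less than the step to the flotillin mean, but the spread among flotillin libraries is unknown. FN1 rose by a log2 fold change of 4.10 (adjusted p = 2.21e-13, authors' deposited table), the 9th largest rise among all genes with an adjusted p. The log2 ratio of its means was larger, at 4.81. By its normalized count FN1 moved from rank 768 of all genes in control cells to rank 4 in flotillin cells. Per length, the authors' deposited Tuxedo table gives FN1 54.9 FPKM (fragments scaled to transcript length and library depth) in control and 1512 in flotillin cells.

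Among genes of fibronectin's receptors and assembly partners, 0 of 9 passed in the authors' deposited table of means, beside 23.6% of all tested genes, a difference that was not tested. Their median log2 fold change was -0.22. The Tuxedo analysis called TGM2 alone higher, which encodes a transglutaminase that crosslinks fibronectin. Its mean was 192 ± 66.2 in the control line and 496 ± 445 in the flotillin line (SD, n = 3 each; authors' deposited adjusted p = 0.0690 and Tuxedo q = 0.0113). TGM2 was 2.59-fold higher over all libraries and 1.26-fold higher without flotillin library 3. ITGA5, the alpha chain of the classical fibronectin receptor, stood at 10930 ± 2280 and 12977 ± 5258 (SD, n = 3). Its partner ITGB1 had authors' means of 61961 and 47976. Neither passed in either table.

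FBN1 (ENSG00000166147, GRCh37 chromosome 15, 48700505 to 48937918) encodes fibrillin-1. Control libraries held 239, 274 and 271 normalized counts and flotillin libraries 1754, 1225 and 4657. Every flotillin library lay above every control library, and library 3 stood well above the other two. Such a separation upwards was seen for 3 of the 8 members recovered in all libraries and for 24.1% of genes in the limma fit, and a separation downwards for 1 of 8 and 21.0%. The means were 261 ± 19.4 and 2545 ± 1848 (SD, n = 3), 9.74-fold higher in flotillin cells. The rise was 2.98 on the log2 scale (adjusted p = 1.93e-10, authors' deposited table). On the recovered libraries, limma, a linear model over all genes of log2(normalized count + 1) with Benjamini-Hochberg adjustment, gave 3.04 ± 0.45 (SE) with an adjusted p of 0.00574, in a fit where 23.2% of 15829 genes were called. Without flotillin library 3 the ratio of the means was 5.70 in place of 9.74, and limma still called the gene, with an adjusted p of 0.0023.

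The paralog FBN2, which encodes fibrillin-2, was not called in the table of means. It stood at 11860 ± 2904 in the control line and 6727 ± 3110 in the flotillin line (SD, n = 3 each; authors' deposited adjusted p = 0.104, Tuxedo q = 0.00735). Per length, in the authors' deposited Tuxedo table, FBN2 remained the more abundant fibrillin, at 44.3 against 0.867 FPKM for FBN1 in control and 23.6 against 8.02 FPKM in flotillin cells. Among 22 other genes of elastic fibres and microfibrils, 17 had an adjusted p, of which 2 rose and 1 fell. FBLN5, encoding fibulin 5, which tethers elastin to cells, rose 11.4-fold, from 67.2 ± 15.1 to 769 ± 523 (SD, n = 3; adjusted p = 8.18e-11, authors' deposited table). The ratio for FBLN5 was 7.16 without flotillin library 3. LTBP2, encoding a latent TGF-beta binding protein of microfibrils, rose 2.55-fold, from 2517 ± 500 to 6412 ± 2778 (SD, n = 3; adjusted p = 0.00248, authors' deposited table). The 1 fall was MFAP5, named here after its values were seen, at 50.9 ± 55.1 in the control line and 9.17 ± 6.32 in the flotillin line (SD, n = 3 each). Its control value rests on library 3, at 114.5 normalized counts beside 19.0 and 19.1. MFAP5 fell 5.55-fold over all libraries, while the ratio was 2.08-fold lower without control library 3 and 9.19-fold lower without flotillin library 3, and limma did not call it (adjusted p = 0.0950). LTBP1 stood at 8776 ± 1865 and 9883 ± 3864 (SD, n = 3) and did not pass in either deposited table.

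DCN (ENSG00000011465, GRCh37 chromosome 12, 91539036 to 91576806) encodes decorin, which binds collagen and TGF-beta. Control libraries held 5080, 7508 and 1388 normalized counts, a mean of 4659 ± 3082 (SD, n = 3), so library 3 was the lowest. The authors' flotillin mean of 42467, 9.12-fold higher, can be made from 3 different sets of whole reads. One set gives 9881, 36524 and 80996 normalized counts for libraries 1 to 3, another 45829, 58203 and 23369, and another 68868, 11356 and 47177. Recovery was checked only at lower means, and between 10000 and 18000 already 29.4% of flotillin means altered at random had a solution. Whether the true set is among these 3 is therefore unknown. In each of them the lowest flotillin library exceeds the highest control library, which cannot show that the true libraries did. The rise was 2.79 on the log2 scale (adjusted p = 3.01e-07, authors' deposited table). Per length, DCN was at 105 FPKM in control and 927 FPKM in flotillin cells in the authors' deposited Tuxedo table, and in flotillin cells only FN1 stood higher among the members.

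LUM (ENSG00000139329, GRCh37 chromosome 12, 91497232 to 91505542) encodes lumican and lies beside DCN on chromosome 12. Control libraries held 6.64, 18.2 and 9.87 normalized counts and flotillin libraries 42.0, 44.6 and 88.4. The groups did not overlap, at a level far below that of DCN. LUM rose 5.05-fold, from 11.6 ± 5.95 to 58.3 ± 26.1 (SD, n = 3), a log2 fold change of 2.04 (adjusted p = 0.000352, authors' deposited table). In limma the log2 fold change was 2.26 ± 0.47 (SE; adjusted p = 0.0167). Leaving out a single library gave limma adjusted p-values between 0.0164 and 0.0577, over 0.05 without control library 1, flotillin library 1 or flotillin library 2. KERA and EPYC, the other proteoglycan genes of the same chromosomal cluster, had 0 reads in all 6 libraries.

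BGN (ENSG00000182492) encodes biglycan, the closest relative of decorin, and was almost unread in both lines. Control libraries held 2.85, 9.56 and 11.8 normalized counts and flotillin libraries 3.0, 4.05 and 6.17. The ranges overlap and the authors' adjusted p was 0.514 in the deposited table of means, while the authors' deposited Tuxedo table marks the gene as not tested. Its GRCh37 locus (chromosome X, 152710178 to 152775012) is shared by 4 genes in that table, and whether this bears on its few reads was not tested. Per length BGN was the lowest member in both lines, at 0.20 and 0.198 FPKM.

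Relatives of the small proteoglycans moved in both directions. Of 12 such genes 5 had an adjusted p, of which 2 rose and 2 fell. OMD, encoding osteomodulin, rose from 9.35 ± 8.15 to 140 ± 93.0 normalized counts (SD, n = 3; adjusted p = 7.13e-06, authors' deposited table). The ratio for OMD was 14.9 over all libraries. With a single library left out it ran from 10.3, without control library 1, to 25.8, without control library 2. ECM2, named after its values were seen, rose from 21.4 ± 7.52 to 65.0 ± 14.4 (SD, n = 3). Limma called both on the recovered libraries (adjusted p = 0.0260 for OMD and 0.0241 for ECM2). The authors' deposited Tuxedo table, where both share a locus of 13 genes, gives them q-values of 0.559 and 0.758. Whether the shared locus bears on their reads was not tested. TSKU, encoding tsukushi, fell 2.48-fold, from 3235 ± 1199 to 1304 ± 190 (SD, n = 3; adjusted p = 0.000898, authors' deposited table), and CHAD, encoding chondroadherin, fell 5.21-fold to 22.6 ± 11 (SD, n = 3). The Tuxedo q of CHAD was 0.454 in the authors' deposited table. ASPN, a close relative of decorin, had group means of 0.648 and 0.676.

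Per length, the order of the 10 genes changed. The FPKM are the authors' group values in the authors' deposited Tuxedo table, with no spread over libraries, so neighbours cannot be ranked beyond error. In control cells SPARC led at 175.5 FPKM, followed by THBS1 at 106, DCN at 105, FN1 at 54.9, VCAN at 31.1 and TNC at 6.17 FPKM. FBN1, POSTN, LUM and BGN were all below 1 FPKM there. In flotillin cells FN1 led at 1512 FPKM, followed by DCN at 927, THBS1 at 136, SPARC at 83.7, VCAN at 23.0, POSTN at 8.57, FBN1 at 8.02, TNC at 3.82, LUM at 1.08 and BGN at 0.198 FPKM.

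**Figure D2:**
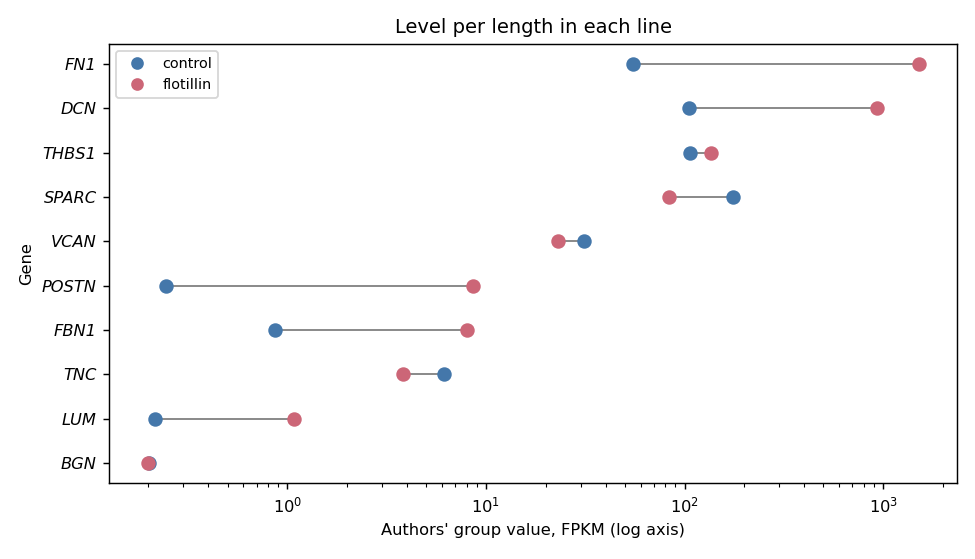
Level per length of the 10 matrix genes as the authors' group values in FPKM (log axis), control in blue and flotillin in red, ordered by the flotillin value. FN1 and DCN move from below SPARC, at 175.5 FPKM in control cells, to the top of the order at 1512 and 927 FPKM, while BGN stays at the bottom.

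Among the matricellular genes, SPARC (ENSG00000113140, GRCh37 chromosome 5, 151040657 to 151104343) was the member that fell. It encodes osteonectin, a collagen-binding protein that is often listed as a mesenchymal marker. Control libraries held 4939, 5089 and 4093 normalized counts and flotillin libraries 2108, 1530 and 3758. All flotillin libraries lay below all control libraries, and flotillin library 3 came nearest to them. SPARC fell 1.91-fold, from 4707 ± 537 to 2465 ± 1156 (SD, n = 3), a log2 fold change of -0.88 (adjusted p = 0.0457, authors' deposited table). In limma the log2 fold change was -1.03 ± 0.32 (SE) with an adjusted p of 0.0522. Without flotillin library 3 it was -1.38 with an adjusted p of 0.0119 in limma. The other losses of 1 library gave limma adjusted p-values from 0.0444 to 0.156, so the call depends on the fit. The Tuxedo q was 0.00695 in the authors' deposited table, where 5 genes share the locus.

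POSTN (ENSG00000133110, GRCh37 chromosome 13, 38136722 to 38172981) encodes periostin, a matrix protein of periosteum, ligament and reactive stroma. Control libraries held 7.59, 0 and 7.90 normalized counts and flotillin libraries 67.0, 31.4 and 1240. The groups did not overlap, and flotillin library 3 was 25.2 times the mean of the other two. The group means were 5.16 ± 4.47 and 446 ± 688 (SD, n = 3), 86.4-fold apart. The ratio of means was 9.53 without flotillin library 3. The authors' deposited table gives a log2 fold change of 1.73, against 6.43 for the log2 ratio of its means. It gives POSTN no p-value, as for 29 genes in all that have a fold change there, and does not state why. The limma fit gave a log2 fold change of 5.04 ± 1.49 (SE) and an adjusted p of 0.0509, and the authors' deposited Tuxedo table a q of 0.157. Leaving out library 3 of both groups, limma put it at 4.0 (adjusted p = 0.0215) in a fit that called 44.1% of genes. TGFBI, the paralog of POSTN and the most abundant of these relatives, had authors' means of 65446 in control and 111717 in flotillin cells (adjusted p = 0.236, authors' deposited table).

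TNC (ENSG00000041982, GRCh37 chromosome 9, 117782806 to 117880486) encodes tenascin C, which appears in wound and tumour stroma. Control libraries held 214, 275 and 743 normalized counts and flotillin libraries 157, 135 and 610. Library 3 was the highest in both groups and the ranges overlap. The means were 411 ± 289 and 300 ± 268 (SD, n = 3), a log2 fold change of -0.38 (adjusted p = 0.645, authors' deposited table). The ratio of means was 0.731, but 1.23 without control library 3, which turns its direction, and 0.355 without flotillin library 3. When library 3 of both groups was left out, limma gave -0.74 with an adjusted p of 0.0435, and TNC was called lower. When it was kept with a term of its own, an alternative chosen after seeing the data, the limma adjusted p was 0.0390 at -0.59, in a fit that called 45.9% of genes. That term treats control and flotillin library 3 as linked, though only their rank by size factor matches them. The related gene TNXB stood at 27.1 ± 14.2 and 10.8 ± 4.94 (SD, n = 3) and did not pass.

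THBS1 (ENSG00000137801, GRCh37 chromosome 15, 39873127 to 39891119) encodes thrombospondin 1, an activator of latent TGF-beta and an inhibitor of new vessels. It was the member with the most reads in control cells. Control libraries held 8036, 13144 and 10868 normalized counts and flotillin libraries 11284, 11968 and 19604. The ranges overlap, with flotillin library 3 above all others. The means were 10682 ± 2559 and 14285 ± 4619 (SD, n = 3), a log2 fold change of 0.40 (adjusted p = 0.372, authors' deposited table). The limma log2 fold change was 0.40 ± 0.28 (SE) with an adjusted p of 0.315. THBS2 stood at 21.5 ± 1.63 and 41.2 ± 8.53 (SD, n = 3) and did not pass.

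Of 22 other matricellular genes 15 had an adjusted p in the authors' deposited table, of which 5 rose and 2 fell. The rises were led by CTGF and CYR61, growth-regulatory proteins of the CCN family, and SPOCK1, a testican related to SPARC. SPOCK1 rose 10.8-fold, from 173 ± 29.6 to 1863 ± 1493 (SD, n = 3; adjusted p = 1.56e-09, authors' deposited table), and CYR61 5.16-fold, from 597 ± 104 to 3078 ± 920 (SD, n = 3). CTGF rose 16.5-fold, from 197 ± 43.2 to 3254 ± 661 (SD, n = 3). Flotillin library 3 stood at 0.990 times the mean of the other two for CTGF and at 3.52 times for SPOCK1, whose ratio was 5.85 without that library. The other rises were the CCN genes NOV and WISP2, at 2.48-fold for each, named after their values were seen. For WISP2 the authors' deposited adjusted p was 0.0432, and limma did not call it (adjusted p = 0.0574). Its ratio was 1.95 without control library 2 and 4.32 without control library 3. THBS3 fell 2.92-fold, from 2301 ± 1508 to 787 ± 369 (SD, n = 3; adjusted p = 0.0363, authors' deposited table) and did not pass in limma (adjusted p = 0.188), and SMOC1, a calcium-binding relative of SPARC named after its values were seen, fell 1.72-fold.

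VCAN (ENSG00000038427, GRCh37 chromosome 5, 82767284 to 82878122) encodes versican. Control libraries held 3393, 4246 and 4494 normalized counts and flotillin libraries 1615, 1280 and 6009. Flotillin libraries 1 and 2 lay below every control library and library 3 above every one. The means were 4044 ± 578 and 2968 ± 2639 (SD, n = 3), a log2 fold change of -0.39 (adjusted p = 0.584, authors' deposited table). Without flotillin library 3 the limma log2 fold change was -1.48 with an adjusted p of 0.0089, and without library 3 of both groups -1.40 with an adjusted p of 0.000645. A single flotillin library thus separates a call of lower versican from no call. The locus is shared by 2 genes.

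Genes of hyaluronan, the polymer that versican binds, were called in both directions. Of 12 lectican and hyaluronan genes 8 had an adjusted p, of which 1 rose and 2 fell. HAS2, a hyaluronan synthase named after its values were seen, rose from 6.40 ± 3.54 to 84.3 ± 17 normalized counts (SD, n = 3; adjusted p = 9.37e-12, authors' deposited table). HAS3, another synthase, fell 8.01-fold, from 434 ± 162 to 54.2 ± 20.7 (SD, n = 3; authors' deposited adjusted p = 9.04e-12, but Tuxedo q = 0.364). CD44, the hyaluronan receptor, fell 2.2-fold, from an authors' mean of 25649 to 11676 ± 383 (SD, n = 3). Over all 5 families, 77 genes, 54 had an adjusted p, of which 10 rose (18.5%) and 7 fell (13%), beside 11.6% and 12.0% of all tested genes. Their median log2 fold change was -0.03.

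**Figure D3:**
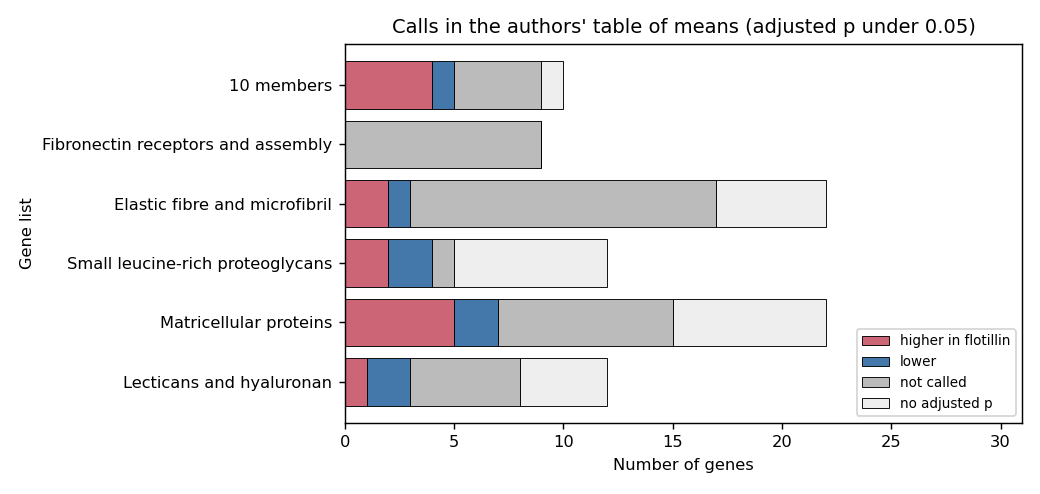
Number of genes called higher (red) or lower (blue), not called (grey) and without an adjusted p (pale) in the authors' deposited table of means, for the 10 members and the 5 companion families. The fibronectin receptor family has 0 calls among 9 genes, while the matricellular family has 5 rises and 2 falls.

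Flotillin library 3 was high for these genes, though not for them alone. It was the highest flotillin library for 8 of the 8 members recovered in all libraries, while it was highest in 41.5% of the 15829 genes in the limma fit. Its ratio to the mean of flotillin libraries 1 and 2 was 25.2 for POSTN, 4.18 for TNC, 4.15 for VCAN, 3.13 for FBN1, 2.07 for SPARC, 2.04 for LUM, 1.75 for BGN and 1.69 for THBS1. All 8 ratios exceed 1.5, a size reached by 12.6% of genes in the limma fit, where the median was 1.00. BGN lies outside that fit, and its ratio rests on 3, 4 and 6 reads. In control cells the same ratio exceeded 1.5 for 3 of 8 members (TNC, POSTN and BGN), beside 20.7% of genes in the fit. DCN, recovered only in control libraries, had a ratio of 0.221 there. The 8 members share a library, so these ratios are a single observation of that library and not 8. Among recovered companion genes with a mean of at least 10, flotillin library 3 was also highest for 6 of 7 fibronectin receptor and assembly genes. Their ratios ran from 0.780 for SDC4 to 5.98 for ITGB3. In the other families it was highest for 9 of 14 elastic fibre, 5 of 11 matricellular, 2 of 5 lectican and hyaluronan and 1 of 5 small proteoglycan genes.

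**Figure D4:**
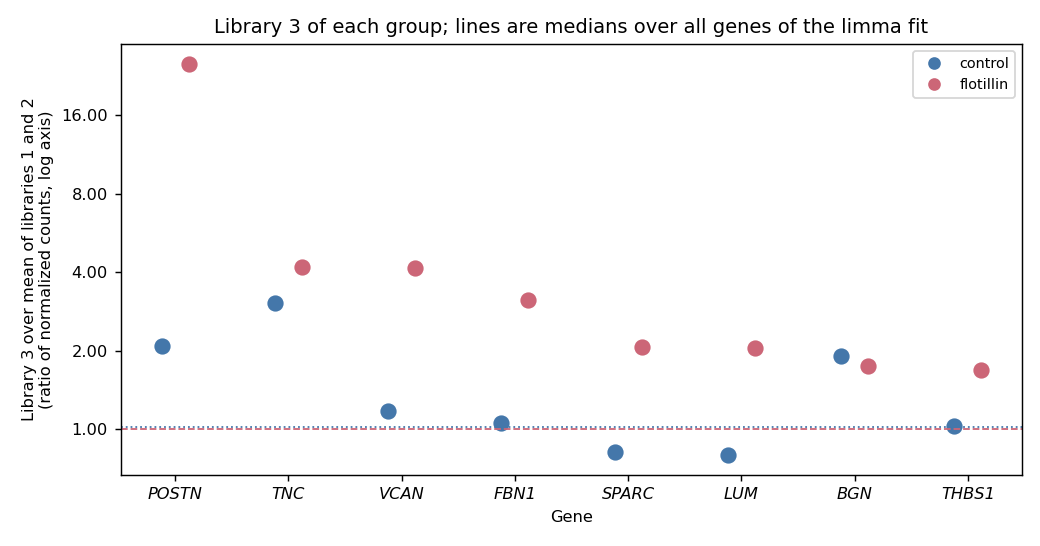
Ratio of library 3 to the mean of libraries 1 and 2 of the same group (log axis) for the 8 matrix genes recovered in every library, control in blue and flotillin in red, with the median of all genes in the limma fit as lines (dashed for flotillin, dotted for control). All 8 flotillin ratios lie above 1.5, from 1.69 for THBS1 to 25.2 for POSTN, while control ratios lie on both sides of 1.

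Fibroblast markers were read alongside. Of 8 such markers 4 had an adjusted p, with PDGFRB higher and COL1A1 lower in the authors' deposited table of means; the Tuxedo q of PDGFRB was 0.259. THY1 had 0 reads in all 6 libraries, COL3A1 1 read in all libraries together, PDGFRA at most 5 reads and COL1A2 at most 7 reads in a library. The summed level of the list ranged from 579 to 1331 normalized counts in control libraries and from 564 to 7239 in flotillin libraries. The highest sum was that of flotillin library 3, where COL6A3, a chain of collagen VI, made up 5388 and FAP 1733. COL6A3 held 51.2, 44.0 and 157 normalized counts in control and 432, 115 and 5388 in flotillin libraries, with flotillin library 3 far above the rest. Like POSTN it has no adjusted p in the authors' deposited table. The part of these markers in the library 3 values was not tested. Immune and endothelial markers gave 1 fall (CD14) among 2 with an adjusted p. The other, CD68, was not called, with means of 753 in control and 1309 in flotillin cells. The endothelial genes CDH5 and VWF held at most 5 reads in a library.

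The authors' deposited tables give log2 fold changes of unlike kinds. That of the Tuxedo table is the log2 ratio of its FPKM. For the called members, that of the table of means was smaller in size than the log2 ratio of those means. The log2 ratios of means were 4.81, 3.28, 3.19 and 2.33 for FN1, FBN1, DCN and LUM, and -0.93 for SPARC. For FN1, FBN1, DCN and LUM the log2 fold changes were 4.10, 2.98, 2.79 and 2.04 in the authors' deposited table of means and 4.78, 3.21, 3.14 and 2.32 in the authors' deposited Tuxedo table. For SPARC they were -0.88 and -1.07. POSTN differed most between these tables, with 1.73 and 5.13. Both tables come from the same 6 samples.

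How many genes limma called moved with the libraries and settings used. Without control library 1, 2 or 3 it called 10.5%, 10.1% and 40.0% of 15829 genes, and without flotillin library 1, 2 or 3 it called 6.19%, 7.06% and 14.0%. Over these 6 fits FBN1 was called higher in each, LUM in 3, and SPARC lower in 2, without control library 3 or flotillin library 3. VCAN was called lower in 1 of them, without flotillin library 3. The share was 22.9% with a pseudocount of 0.5, 12.3% with no filter, 26.4% with a mean of at least 100 and 23.1% when scaled by total recovered reads. SPARC passed with no filter (adjusted p = 0.0390, limma) and with total scaling (adjusted p = 0.0444, limma), and POSTN with the higher minimum and with total scaling.

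**Figure D5:**
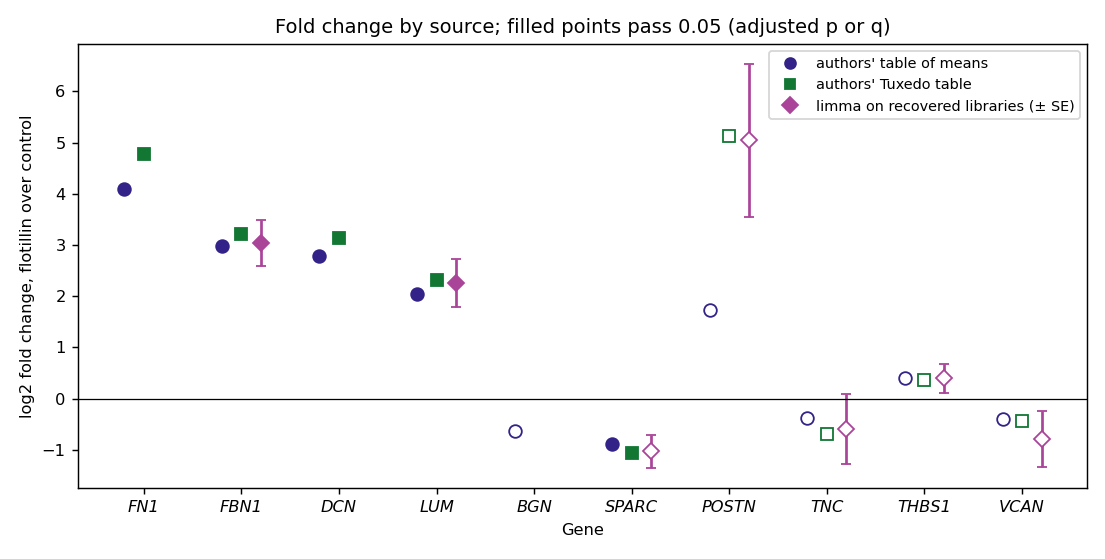
Log2 fold change of flotillin over control for the 10 matrix genes in the authors' table of means (circles), the authors' Tuxedo table (squares) and limma on recovered libraries (diamonds, ± SE); filled symbols pass 0.05. FN1, FBN1, DCN and LUM lie above 2 wherever they have a value, SPARC lies near -1, and the circle of POSTN sits at 1.73 while its other symbols sit above 5.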

How the data were processed

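RNA of 6 libraries, 3 per group, was analysed from 2 deposited tables of the same comparison; groups follow the sample titles. Per the submitters' processing notes the tools included HISAT2 2.1.0, HTSeq 0.9.1 and DESeq2 1.18.1, with GRCh37 as build. Annotation release: not given in the sources used here. One deposited table holds signal, the group means of size-factor-normalized counts, with the authors' log2 fold change, p-value and adjusted p. The other, from the Tuxedo pipeline, holds the authors' FPKM, log2 fold changes, a test score and q-values, per the file headers. Loci are given in GRCh37, counted from 1.

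Whole reads were solved from each mean, using the value of 1 read in each library as seen in the lowest means. Every mean up to 19000 had exactly 1 solution (100% in both groups); of means altered at random, 0.2% and 0% had one below a mean of 10000 and 33% and 29.4% between 10000 and 18000 (control and flotillin). Members and gene lists were chosen with earlier results of these data known. Main calls are the authors' adjusted p under 0.05. In R 4.3.3, limma 3.58.1 with robust, trended variances and Benjamini-Hochberg adjusted p-values was run on log2(normalized count + 1) for 15829 recovered genes with a mean of at least 10, so FN1, DCN and BGN are not in that fit. Tested on data simulated for this comparison over these 15829 genes, it called 56% of 100 genes changed 2-fold and 95% of 100 changed 4-fold, with 4.43% false calls. Every simulated gene had the same dispersion, the spread between libraries beyond that of read sampling, at 0.0476, and libraries were independent. These rates may therefore not hold for members with a wide spread, such as POSTN at 446 ± 688 in flotillin cells (SD, n = 3). Named companion genes are up to 4 per family with the largest authors' log2 fold change among those called with a group mean of at least 100, plus FBN2, THBS2, TGFBI, LTBP1, ASPN and TNXB; PECAM1 was not analysed here. Python 3.11.15, numpy 2.4.6, pandas 2.3.3, numba 0.67.0 and matplotlib 3.10.9 were used.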

Additional observations from a re-analysis of the deposited data

How the results depend on the processing

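No paired analysis was possible because the columns are group means and the recovered libraries carry no replicate numbers. The log2 fold changes of the 10 members kept their direction under the alternatives that gave one, including the log2 ratio of means shifted by 0.12, the median over genes with a mean of at least 100. The exception was the plain ratio of group means of TNC, 0.731 over all libraries and 1.23 without control library 3. FN1 and DCN have values only in the deposited tables and in that ratio. Of members, 4 rose and 1 fell in the main result, and at an adjusted p of 0.01 there were 0 falls. Limma, which lacks FN1 and DCN, gave 2 rises and 0 falls, also with a pseudocount of 0.5 or a mean of at least 100, where POSTN (adjusted p = 0.0474) stands in place of LUM; with no filter it gave 2 and 1. Scaled by total reads it gave 3 and 1, with POSTN at an adjusted p of 0.0476. Without library 3 of both groups it gave 3 rises and 3 falls, in a fit that called 44.1% of 15829 genes. With a term for library 3, chosen after seeing the data, it gave 3 and 2, where 45.9% were called. Library 3 of control and of flotillin cells are matched by size factor rank alone. Leaving out 1 library gave 1 to 2 rises and 0 to 2 falls; over these 6 fits between 980 and 6337 of 15829 genes were called. Each such fit leaves 2 libraries in 1 group.

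For the companion families the same single losses gave 0 rises and 0 to 1 falls among fibronectin receptors, 1 to 2 and 0 to 2 in elastic fibres, 0 to 2 and 0 to 2 in small proteoglycans, 3 to 5 and 0 to 3 in matricellular genes, and 1 and 1 to 2 in lecticans and hyaluronan. The Tuxedo table moved fibronectin receptors to 1 rise, elastic fibres to 3 falls and small proteoglycans to 0 rises and 1 fall. At 0.01 elastic fibres had 0 and matricellular genes 1 fall. Limma, also with a pseudocount of 0.5, scaled by total reads, with no filter or with a mean of at least 100, gave 0 falls in elastic fibres, 1 in matricellular genes and 1 in lecticans; with no filter small proteoglycans had 1 rise, and at a mean of at least 100 they had 0 rises and 1 fall and lecticans 0 rises and 1 fall. Without library 3 of both groups there were 3 falls among fibronectin receptors and 4 in elastic fibres, in a fit that called 44.1% of all 15829 genes. With the term for library 3 there were 2 rises and 1 fall among fibronectin receptors and 4 falls in elastic fibres. That fit called 45.9% of all genes, so these counts are not read as a result about the families. Where not shown by fewer genes or samples, the cause was not tested. The spread of FN1 and DCN among flotillin libraries is unknown.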
